A study of Mus musculus with 36 samples.

Results

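The genes described here make, break down or sense prostaglandins: the cyclooxygenases Ptgs1 and Ptgs2, the prostaglandin E synthases Ptges, Ptges2 and Ptges3, the prostaglandin D synthase Ptgds, the prostacyclin synthase Ptgis, the prostaglandin dehydrogenase Hpgd and the prostaglandin E2 receptors Ptger2 and Ptger4. These 10 genes were listed by name, by a rule that uses no measured value, but with earlier results of these data known. Of these, 10 of 10 were found among the 43472 genes of the count table. Transcripts were counted from their 3′ ends in 36 libraries of primary enteric glial cells (EGCs), the supporting cells of the gut's nervous system, grown from neurospheres of wild-type C57BL/6J mouse embryos. EGCs were left unstimulated, stimulated with medium conditioned by cells of the healthy colon (H-CM), or stimulated with medium conditioned by cells of MC38 colon tumors grown in mouse colon (TME-CM), for 6, 12 or 24 h, with 4 libraries for each of the 9 groups. The groups share genotype and culture and differ by medium and time only, as far as the labels say. The conditioned media are mixtures made by many cell types, the cells are of embryonic origin, and the labels do not say whether the 4 libraries of a group came from separate cultures, so that p-values measure the spread between these libraries, which may be technical.

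Prostaglandins are local lipid signals made from arachidonic acid that phospholipase A2 frees from membranes. Cyclooxygenase converts arachidonic acid to prostaglandin H2, and a terminal synthase turns prostaglandin H2 into 1 final product: prostaglandin E2, prostaglandin D2, prostacyclin or another. Ptgs1 is known as the constitutive cyclooxygenase and Ptgs2 as the inducible one, Ptges encodes the inducible microsomal prostaglandin E synthase that is often co-induced with Ptgs2 in inflammation, and prostaglandin E2 is a known product of colon tumors and of inflamed gut.

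Between TME-CM and H-CM, the members that passed the test were this inducible pair. Ptgs2 and Ptges were higher in TME-CM EGCs than in H-CM EGCs at 12 h and at 24 h, by 2.50-fold and 4.94-fold at 12 h and by 2.65-fold and 4.85-fold at 24 h. No other member passed the test against H-CM at any time, and no member passed the test between H-CM and unstimulated EGCs. Ptgs1 was 1.36-fold higher in TME-CM than in unstimulated EGCs at 24 h.

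Because Ptgs2 and Ptges were both called between TME-CM and H-CM, the region around the start of each gene is shown, 250 bases before to 50 bases after the start, as given by RefSeq for GRCm38.p6 (9 of the 10 members had such an entry). The Ptgs2 window is chr1:150099781-150100080 on the plus strand and the Ptges window is chr2:30903248-30903547 on the minus strand. RefSeq thus places the start of Ptges inside the span that GENCODE gives the gene, whose outer end is at 30929863. Capitals mark, on either strand, the letters TTGCNNAA (a C/EBP motif), TGACG (the core of a cAMP response element), TATAAA (the core promoter box of that name) and the NF-κB consensus.
Ptgs2: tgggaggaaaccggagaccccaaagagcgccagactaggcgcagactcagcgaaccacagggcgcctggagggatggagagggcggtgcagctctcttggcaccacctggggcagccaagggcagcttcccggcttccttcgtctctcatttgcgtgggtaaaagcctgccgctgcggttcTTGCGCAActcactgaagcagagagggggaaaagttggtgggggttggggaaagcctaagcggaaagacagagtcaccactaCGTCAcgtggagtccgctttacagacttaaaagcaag
Ptges: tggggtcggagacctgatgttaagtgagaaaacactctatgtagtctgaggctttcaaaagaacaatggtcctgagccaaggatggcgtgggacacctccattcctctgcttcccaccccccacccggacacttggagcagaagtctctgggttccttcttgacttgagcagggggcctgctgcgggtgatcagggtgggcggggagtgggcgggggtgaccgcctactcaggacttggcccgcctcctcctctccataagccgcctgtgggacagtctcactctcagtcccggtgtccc
The Ptgs2 window held TTGCGCAA, which reads the same on both strands, at position -69 from the start, and CGTCA, the reverse complement of TGACG, at position 14, where it overlaps the E-box CACGTG at position 17. The Ptges window held none of the 4 capitalized motifs and 1 E-box, CACTTG at position -121. Among all 32851 promoter windows of the same length, 10.8% held the C/EBP motif, 20.81% TGACG, 13.62% TATAAA, 8.46% the NF-κB consensus and 72.31% an E-box (CANNTG), on either strand. These are matches of letters in a short window, not sites, and no match was shared by both genes other than an E-box.

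The cultures carried the glial markers Sox10 and S100b in all 36 libraries, at group means of 60.0 to 87.8 and 41.2 to 137 CPM (counts scaled to the TMM-adjusted library total), whereas Gfap reached 1.08 to 4.09 CPM and was at 0 in 5 libraries. They also carried mesenchymal and smooth muscle markers, with Col1a1 at 2794 to 4108 CPM, Dcn at 526 to 2259 CPM, Pdgfra at 24.8 to 92.2 CPM and Acta2 at 1523 to 5724 CPM, and immune markers with Lyz2 at 84.4 to 160 CPM. Neuron markers were present as well, at group means of 63.9 to 131 CPM for Elavl4 and 51.1 to 109 CPM for Tubb3. Those of Nefl were 8.43 to 28.2 CPM and those of Syp 3.66 to 17.4 CPM. The label of enteric glia thus describes a mixed culture. The epithelial markers Krt8 and Epcam were at 0 in 34 and 30 of the 36 libraries. A further epithelial marker, Cdh1, had group means of 0.0709 to 2.01 CPM and was detected in every H-CM library of 12 h (mean 1.41 CPM). The libraries held 13518 to 7552509 counts, and the median total grew from 1526580 (6 h) over 4090589 (12 h) to 5465090 (24 h). A single library, H-CM 6 h replicate 4, held the 13518 counts, where an undetected gene may still be at 110.5 CPM (3 counts, a limit for counting error only). Values of 6 h are therefore the least precise, and differences from H-CM at 6 h are given with and without that library. Genes that passed edgeR's filter on low counts numbered 9256 at 6 h, 12156 at 12 h and 12713 at 24 h. Of the 10 members, 8 passed at 6 h, 9 at 12 h and 10 at 24 h: Hpgd and Ptger2 failed at 6 h and Ptger2 at 12 h.

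Ptgs2 (ENSMUSG00000032487, GRCm38 chromosome 1, 150100031 to 150108227, plus strand) encodes cyclooxygenase-2. At 24 h, the 4 TME-CM libraries gave 509, 346, 458 and 458 CPM. The H-CM libraries gave 244, 150, 112 and 161 CPM, and the unstimulated libraries 158, 190, 139 and 190 CPM. Every TME-CM library lay above every library of the other 2 groups, which overlapped each other. The means were 442 ± 68.8 (SD, n = 4) in TME-CM, 167 ± 55.6 in H-CM and 169 ± 24.97 in unstimulated EGCs. TME-CM exceeded H-CM by 1.41 ± 0.19 (SE) on the log2 scale (edgeR quasi-likelihood test, adjusted p = 0.000101) and unstimulated EGCs by 1.38 ± 0.19 (adjusted p = 4.06e-05). In bulk libraries such as these, a change in RNA per cell cannot be told apart from a change in the number of cells of a type.

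At 12 h, Ptgs2 stood at 482, 296, 452 and 623 CPM in TME-CM against 158, 213, 126 and 247 CPM in H-CM, again without overlap. Unstimulated EGCs gave 219, 159, 160 and 308 CPM, and here the highest unstimulated library exceeded the lowest TME-CM library. The log2 difference was 1.32 ± 0.25 from H-CM (adjusted p = 0.00547) and 1.12 ± 0.25 from unstimulated EGCs (adjusted p = 0.00803, and 0.0586 without unstimulated 12 h replicate 3). At 6 h, TME-CM libraries gave 338, 576, 475 and 1225 CPM, H-CM libraries 232, 228, 289 and 110 CPM and unstimulated libraries 172, 343, 105 and 373 CPM. TME-CM lay above H-CM in all 4 libraries and overlapped the unstimulated group, and neither difference passed the test: the log2 values were 1.49 ± 0.43 (adjusted p = 0.368) and 1.35 ± 0.42 (adjusted p = 0.307). Without H-CM 6 h replicate 4, in which Ptgs2 had 3 counts, the first was 1.40 (adjusted p = 0.617).

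Ordered by mean, Ptgs2 ran from TME-CM at 6 h (653 ± 393 CPM) over TME-CM at 12 h (463 ± 134) and 24 h (442 ± 68.8) to unstimulated EGCs at 6 h (248 ± 130), H-CM at 6 h (215 ± 74.9), unstimulated at 12 h (211 ± 70.2), H-CM at 12 h (186 ± 54.5), unstimulated at 24 h (169 ± 24.97) and H-CM at 24 h (167 ± 55.6). The step from the third to the fourth of these exceeded the SDs of both neighbors, and every other step was smaller than at least 1 of the SDs beside it. The H-CM mean at 6 h includes H-CM 6 h replicate 4, in which Ptgs2 had 3 counts, so its place in this order is not settled. From 12 h to 24 h in TME-CM, Ptgs2 differed by -0.06 ± 0.24 on the log2 scale (adjusted p = 0.984), so that no change over these 12 h was detected.

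**Figure D1:**
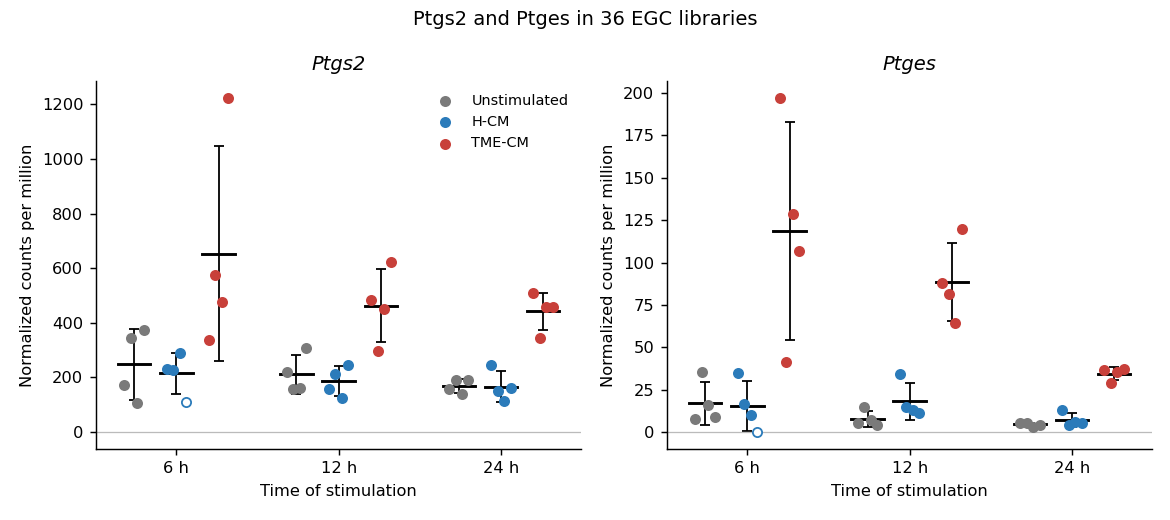
Normalized CPM of Ptgs2 (left) and Ptges (right) on linear axes in unstimulated (gray), H-CM (blue) and TME-CM (red) EGCs over 3 times. Each point is 1 library, the open point is the library with 13518 counts, and the black bars are the mean and SD of 4 libraries. TME-CM libraries of Ptgs2 lie between 346 and 509 at 24 h, above all others of that time, and TME-CM libraries of Ptges come down from 64.5 to 120 at 12 h to 28.8 to 36.9 at 24 h.

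Ptges (ENSMUSG00000050737, GRCm38 chromosome 2, 30889471 to 30929863, minus strand) had the largest log2 difference between TME-CM and H-CM among the members tested at each of the 3 times. At 24 h, TME-CM libraries gave 36.6, 28.8, 35.3 and 36.9 CPM, H-CM libraries 12.97, 4.21, 5.68 and 5.45 CPM and unstimulated libraries 5.27, 5.29, 3.24 and 4.45 CPM. The lowest TME-CM library was above the highest of either other group. TME-CM exceeded H-CM by 2.28 ± 0.28 on the log2 scale (adjusted p = 1.87e-05) and unstimulated EGCs by 2.93 ± 0.29 (adjusted p = 2.28e-07).

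At 12 h, Ptges stood at 88.2, 81.6, 64.5 and 120 CPM in TME-CM, at 34.2, 14.6, 12.8 and 11.1 CPM in H-CM and at 5.597, 14.7, 6.88 and 4.38 CPM in unstimulated EGCs. TME-CM again lay above both other groups in every library, with log2 differences of 2.31 ± 0.37 from H-CM (adjusted p = 0.00119) and 3.53 ± 0.40 from unstimulated EGCs (adjusted p = 1.22e-05, an 11.5-fold difference). H-CM overlapped unstimulated EGCs, and its log2 difference of 1.22 ± 0.40 did not pass the test (adjusted p = 0.44). H-CM replicate 1 was the highest of its group at both 12 h and 24 h, and these numbers do not tie libraries of different times together.

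At 6 h, the TME-CM libraries of Ptges spread from 41.1 to 197 CPM (197, 41.1, 129 and 107), the H-CM libraries gave 35.0, 16.4, 9.999 and 0 CPM and the unstimulated libraries 7.56, 35.2, 15.8 and 8.96 CPM. All 4 TME-CM libraries were above the others, with the 0 coming from the library of 13518 counts. The log2 difference was 2.78 ± 0.65 from unstimulated EGCs, which passed the test (adjusted p = 0.0478) and did so in 6 of 15 alternative analyses. Without unstimulated 6 h replicate 2 it was 3.55 (adjusted p = 0.0297). Of the 8 fits that left out 1 library of these groups, 2 called the difference. Their log2 values ran from 2.46 to 3.55, with adjusted p up to 0.178 (without unstimulated 6 h replicate 1). From H-CM it was 2.61 ± 0.68 and did not pass (adjusted p = 0.19, and 0.336 at a log2 value of 2.58 without H-CM 6 h replicate 4). Without H-CM 6 h replicate 1, the highest of its group, it was 3.23 (adjusted p = 0.207). Over the 8 fits that left out 1 library, it ran from 2.31 to 3.23 and was called in 0, with adjusted p up to 0.951 (without H-CM 6 h replicate 3).

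Ptges also differed with time. In TME-CM EGCs the 4 libraries of 24 h were all below the 4 of 12 h, a log2 difference of -1.35 ± 0.32 (adjusted p = 0.0399, and not called in 7 of the 8 fits that left out 1 of these libraries, with adjusted p up to 0.172). H-CM EGCs showed nearly the same difference, -1.33 ± 0.36, without passing the test (adjusted p = 0.281). The difference between TME-CM and H-CM itself changed by -0.01 ± 0.57 from 12 h to 24 h (adjusted p = 0.99999), and for Ptgs2 by 0.10 ± 0.34 (adjusted p = 0.99999). Means of Ptges ran from TME-CM at 6 h (118 ± 64.4 CPM), 12 h (88.6 ± 23.2) and 24 h (34.4 ± 3.82) to H-CM at 12 h (18.2 ± 10.8), unstimulated at 6 h (16.9 ± 12.8), H-CM at 6 h (15.3 ± 14.7), unstimulated at 12 h (7.90 ± 4.68), H-CM at 24 h (7.08 ± 3.98) and unstimulated at 24 h (4.56 ± 0.961). The steps from the second to the third and from the third to the fourth exceeded the SDs of both neighbors, and every other step was smaller than at least 1 of the SDs beside it. The H-CM mean at 6 h includes the 0 of H-CM 6 h replicate 4, where an undetected gene may still be at 110.5 CPM. Its place in this order is therefore not settled.

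Ptgs1 (chromosome 2, 36230426 to 36252272, plus strand), the constitutive cyclooxygenase, behaved differently from Ptgs2. At 24 h it stood at 239, 180, 224 and 240 CPM in TME-CM, at 201, 211, 198 and 214 CPM in H-CM and at 159, 172, 150 and 166 CPM in unstimulated EGCs. Both conditioned media lay above unstimulated EGCs in every library and overlapped each other. The log2 difference of TME-CM from unstimulated EGCs was 0.44 ± 0.12 (adjusted p = 0.0153, lost in 4 of 15 alternatives with adjusted p up to 0.733), that of H-CM was 0.35 ± 0.12 (adjusted p = 0.173) and that of TME-CM from H-CM was 0.10 ± 0.12 (adjusted p = 0.778). At 12 h and 6 h the differences of TME-CM from H-CM were 0.14 ± 0.18 and 0.54 ± 0.41, with adjusted p = 0.857 and 0.911. Without H-CM 6 h replicate 4 the latter was 0.55 (adjusted p = 0.938).

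The other prostaglandin E synthases did not pass the test. Ptges2, a membrane-associated synthase regarded as constitutive, gave 24.3, 42.8, 23.1 and 45.2 CPM in TME-CM at 12 h against 20.7, 8.81, 4.56 and 14.6 CPM in H-CM. The TME-CM libraries were all above the H-CM libraries, and the log2 difference of 1.48 ± 0.41 missed the threshold (adjusted p = 0.0721), while DESeq2's Wald test passed it (adjusted p = 0.0246). It passed in 3 of 15 alternatives, with adjusted p from 0.00163 to 0.652. From unstimulated EGCs, also all below TME-CM at 12 h, the difference was 1.39 ± 0.41 (adjusted p = 0.0606, passing in 4 of 15 alternatives). At 24 h TME-CM and H-CM overlapped (0.68 ± 0.28, adjusted p = 0.208), and at 6 h TME-CM libraries ran from 0.411 to 23.8 CPM (-0.70 ± 1.12 from H-CM, adjusted p = 0.939, and -0.81 with 0.943 without H-CM 6 h replicate 4). Ptges3, the cytosolic synthase that is also the Hsp90 co-chaperone p23, varied little: its means at 12 h were 121 ± 23.5 in TME-CM, 125 ± 11.5 in H-CM and 116 ± 8.44 CPM in unstimulated EGCs, and at 24 h 144 ± 12.1, 134 ± 15.0 and 131 ± 17.3 CPM.

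Synthases of other prostaglandins did not pass the test either. Ptgds, which makes prostaglandin D2, had means of 9.40 to 12.8 CPM over the 6 groups of 12 h and 24 h, with log2 differences of TME-CM from H-CM of -0.10 ± 0.38 at 12 h (adjusted p = 0.957) and 0.25 ± 0.27 at 24 h (adjusted p = 0.743). Ptgis, which makes prostacyclin, gave 10.96, 9.97, 10.9 and 13.4 CPM in TME-CM at 24 h against 19.9, 12.0, 27.9 and 17.8 CPM in H-CM and 20.6, 11.1, 19.3 and 19.3 CPM in unstimulated EGCs. The highest TME-CM library reached into both other groups. The log2 difference from H-CM was -0.79 ± 0.25 at 24 h (adjusted p = 0.0808, passing in 2 of 15 alternatives: 0.0301 without a filter and 0.0301 without H-CM 24 h replicate 2) and -0.79 ± 0.30 at 12 h (adjusted p = 0.276).

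Levels of cell type markers also differed between the media. Summed over 4 mesenchymal markers, the level ran from 4457 to 5776 CPM in TME-CM against 3396 to 4138 in H-CM at 24 h and from 4371 to 5129 against 2988 to 4279 at 12 h. Every TME-CM library was above H-CM at these times, and unstimulated EGCs (4023 to 5497 at 24 h and 4062 to 5214 at 12 h) overlapped TME-CM. Within that list Dcn and Pdgfra had higher means in TME-CM at 24 h (2259 and 92.2 CPM) than in H-CM (974 and 48.2) and unstimulated EGCs (972 and 30.04). Col1a1, the largest part of that sum, was at 3003, 2794 and 4042 CPM in these groups, and Wt1 at 8.41, 6.33 and 9.40 CPM. Summed over 5 smooth muscle markers, the level at 24 h ran from 1563 to 2320 CPM in TME-CM, from 3036 to 3722 in H-CM and from 6586 to 7549 in unstimulated EGCs. For 3 endothelial markers it ran from 10.2 to 24.7, from 30.7 to 60.4 and from 34.4 to 51.9 CPM. Most of that sum was Kdr, at means of 12.6, 40.0 and 38.0 CPM. Pecam1 was at 3.40, 4.81 and 2.83 CPM and Cdh5 at 0.222, 0.212 and 0.0705 CPM, without the same order. The summed level of 6 immune markers overlapped between the groups (60.1 to 311 CPM in TME-CM, 71.8 to 299 in H-CM and 47.3 to 187 in unstimulated EGCs at 24 h). Of the glial markers, S100b had means of 48.4 (TME-CM), 80.2 (H-CM) and 66.3 CPM (unstimulated) at 24 h, and Sox10 of 65.8, 65.4 and 63.8 CPM. Of the neuron markers, Nefl was at 8.43, 28.0 and 23.4 CPM in these groups and Tubb3 at 81.8, 58.5 and 58.4 CPM. Elavl4 was at 66.3, 70.2 and 63.9 CPM and Syp at 3.66, 5.91 and 4.24 CPM. The part of any of these cells in the values of Ptgs2, Ptges, Ptgis and the other members was not tested.

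Hpgd, the enzyme that starts the breakdown of prostaglandin E2, was near the limit of detection. At 24 h it gave 0.433, 6.90, 0.807 and 0.839 CPM in TME-CM, 3.39, 4.38, 3.82 and 0.990 CPM in H-CM and 9.53, 2.88, 1.41 and 1.85 CPM in unstimulated EGCs. The groups overlapped through TME-CM replicate 2, which held 18 counts. Against unstimulated EGCs the log2 difference was -1.03 ± 0.78 (adjusted p = 0.572). Single libraries moved this value in both directions: without TME-CM 24 h replicate 2 it was -2.41 (adjusted p = 0.0278), and without unstimulated 24 h replicate 1, the library at 9.53 CPM, it was -0.16 (adjusted p = 0.944). At 12 h the difference from H-CM was -0.77 ± 0.82 (adjusted p = 0.824).

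Of the receptors, Ptger4 encodes EP4 and Ptger2 encodes EP2, both of which raise cAMP when bound by prostaglandin E2. Ptger4 gave 6.74, 2.80, 5.27 and 4.37 CPM in TME-CM at 12 h and 6.99, 11.1, 8.44 and 11.9 CPM in H-CM. The TME-CM libraries were all below the H-CM libraries, yet the log2 difference of -0.98 ± 0.46 did not pass the test (adjusted p = 0.461), and at 24 h it was 0.03 ± 0.39 (adjusted p = 0.984). Ptger2 stayed between 0 and 4.65 CPM in all 36 libraries, with at most 25 counts in a library and too few counts for a test at 6 h or 12 h. At 24 h its log2 difference of TME-CM from H-CM was 0.57 ± 0.80 (adjusted p = 0.818). Of the 10 members, 4 (Ptgs1, Ptgis, Ptger2 and Ptger4) share exon bases with another annotated gene, so that reads there may have been assigned or dropped depending on the counting.

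**Figure D2:**
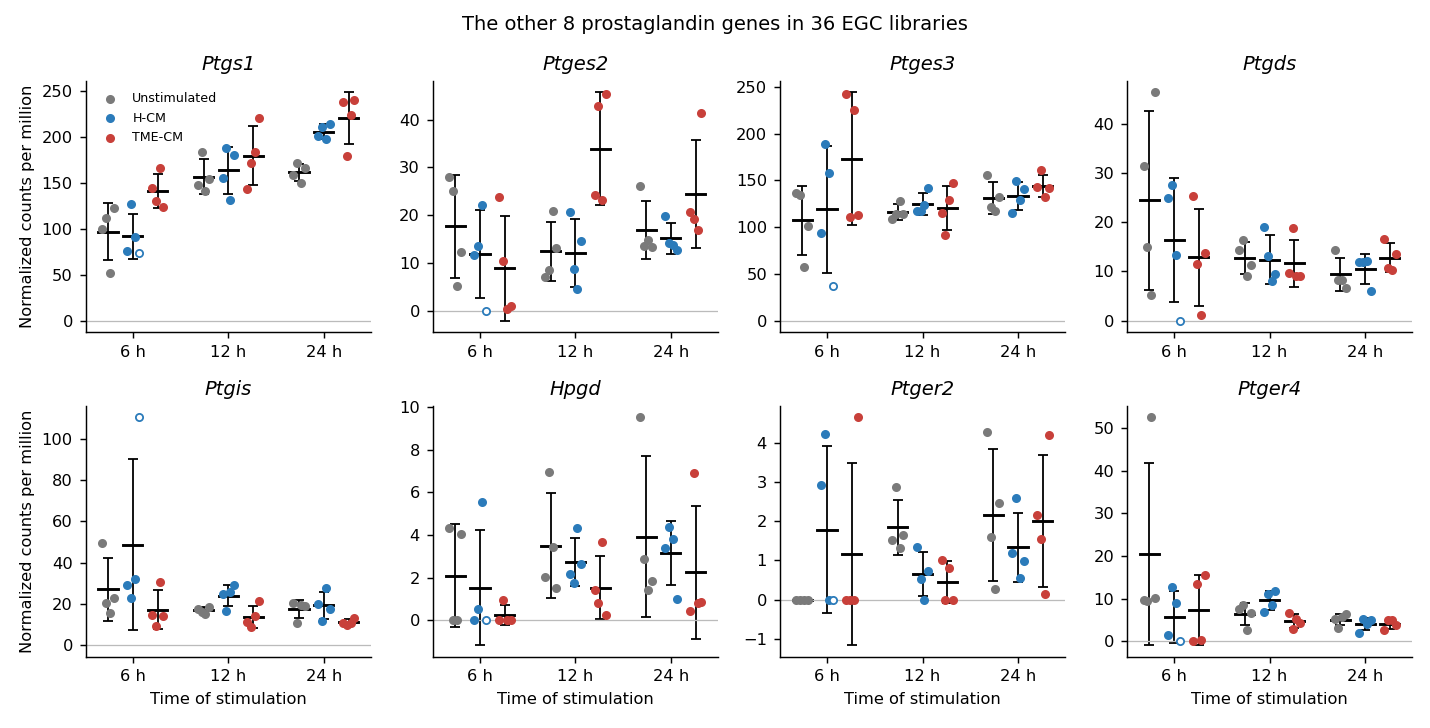
Normalized CPM of the other 8 members on linear axes, each panel with its own scale, in unstimulated (gray), H-CM (blue) and TME-CM (red) EGCs over 3 times. Points are libraries, the open point is the library with 13518 counts, and the black bars are the mean and SD of 4 libraries. Ptgs1 reaches 180 to 240 in TME-CM and 198 to 214 in H-CM at 24 h, above 150 to 172 in unstimulated EGCs, while Ptges3 overlaps between the media at 12 h and 24 h.

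Counted over the set, 2 of the 9 members tested at 12 h and 2 of the 10 tested at 24 h were called between TME-CM and H-CM, both higher in TME-CM each time, where 1.89% and 5.40% of all genes tested were called. At 6 h edgeR called 0 of 8, with 0.0972% of all genes called, while 2 members had an unadjusted p under 0.05 and DESeq2 called 0. The median log2 difference of the members tested was 0.16, -0.05 and 0.18 at 6, 12 and 24 h, beside 0.13, 0.00 and 0.00 over all genes tested. At 6 h it was 0.07, again with 0 members called, without H-CM 6 h replicate 4. Against unstimulated EGCs, 1 of 8, 2 of 9 and 3 of 10 members were called at 6, 12 and 24 h, all higher in TME-CM, and the shares of all genes were 0.454%, 4.41% and 9.52%. The comparisons with H-CM and with unstimulated EGCs use the same TME-CM libraries. Since the members were chosen with earlier results of these data known, the counts beside these shares describe the set and do not test it.

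Between H-CM and unstimulated EGCs, edgeR called 0 of 8, 0 of 9 and 0 of 10 members, with 0%, 0.403% and 2.03% of all genes called. Members with an unadjusted p under 0.05 numbered 0 at 6 h, 1 at 12 h (Ptges) and 2 at 24 h (Ptgs1 and Ptges), and DESeq2 called 0, 0 and 1 (Ptgs1, adjusted p = 0.0497). From 12 h to 24 h, 1 of 10 members was called in TME-CM (Ptges, lower, with 0.626% of all genes called). In H-CM edgeR called 0 of 10 (0.00763% of all genes, 3 members at an unadjusted p under 0.05, 0 by DESeq2) and in unstimulated EGCs 0 of 10 (0.0153% of all genes, 0 members unadjusted, 0 by DESeq2). The change of the difference between TME-CM and H-CM was called for 0 of 10 members from 12 h to 24 h (0% of all genes) and for 0 of 10 from 6 h to 24 h (0.0155% of all genes), with 0 members at an unadjusted p under 0.05 and 0 called by DESeq2 in either.

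**Figure D3:**
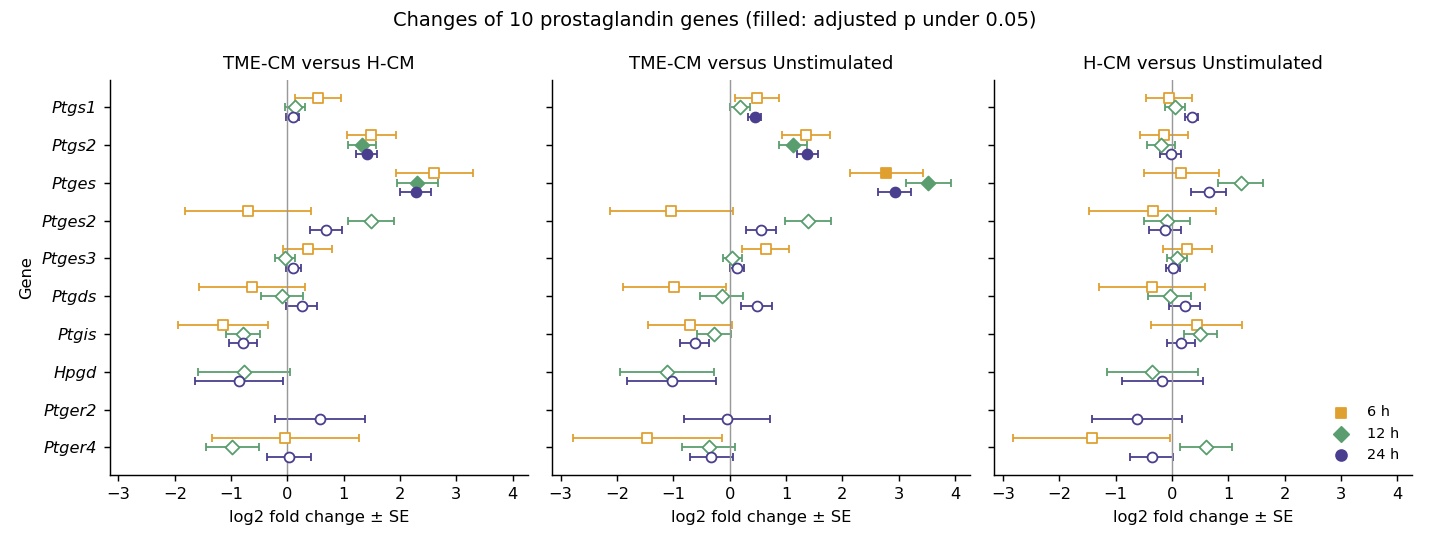
Log2 fold change with its SE for the 10 members in TME-CM versus H-CM (left), TME-CM versus unstimulated (middle) and H-CM versus unstimulated EGCs (right) at 6 h (squares), 12 h (diamonds) and 24 h (circles). Filled symbols passed an adjusted p of 0.05 in edgeR and members that failed the filter have no symbol. Ptgs2 and Ptges are filled at 12 h and 24 h in the left and middle panels, and the right panel has no filled symbol.

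Around these members, 45 further genes of the eicosanoid pathway were listed by role, of which 41 had at least 1 count, and 12, 20 and 23 were tested at 6, 12 and 24 h. Between TME-CM and H-CM, 0 of 12, 1 of 20 and 2 of 23 were called, all higher in TME-CM, beside 0.0972%, 1.89% and 5.40% of all genes. Slco3a1, a membrane carrier that accepts prostaglandins among other substrates, had means of 185 ± 27.1 CPM in TME-CM, 121 ± 7.76 in H-CM and 92.3 ± 9.88 in unstimulated EGCs at 24 h. It was 0.60 ± 0.13 higher than in H-CM on the log2 scale at 24 h (adjusted p = 0.00511), 0.68 ± 0.18 at 12 h (adjusted p = 0.0525) and 1.33 ± 0.18 above unstimulated EGCs at 12 h (adjusted p = 6.56e-05), with every TME-CM library above every library of the group compared.

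Ptgs2os2 (chromosome 1, 150159043 to 150164948, minus strand), also called lincRNA-Cox2, is a long non-coding RNA that lies 50816 bases beyond the end of Ptgs2 and shares no exon with it. It had 57, 11, 69 and 38 counts in TME-CM at 24 h, 12, 1, 1 and 0 in H-CM and 0, 2, 0 and 0 in unstimulated EGCs. At 12 h the counts were 23, 21, 30 and 14 in TME-CM, 4, 0, 0 and 2 in H-CM and 0, 0, 1 and 4 in unstimulated EGCs. As CPM, the TME-CM libraries were all above both other groups at 12 h and at 24 h, at means of 5.69 ± 2.07 and 7.03 ± 2.22, and it passed the test against H-CM at both times (adjusted p = 0.0473 and 0.00779). The fold is not given, since it rests on few counts in the other groups. Ptgs2os2 passed the filter through its TME-CM libraries, the group where it is high. Its calls, which the counts of called genes above include, therefore describe it and are no further support. Ptgs2os, the divergent transcript that starts 68 bases from the start of Ptgs2, passed the filter at 24 h only among the 3 times, with means of 3.14 ± 2.19 (TME-CM) and 0.544 ± 0.464 CPM (H-CM, adjusted p = 0.0945).

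The remaining roles had no called gene between TME-CM and H-CM. Among 4 phospholipases tested at 24 h, Pla2g4a, the cytosolic enzyme that frees arachidonic acid, had means of 117 ± 11.4 (TME-CM) and 91.8 ± 18.5 CPM (H-CM, log2 difference 0.34 ± 0.14, adjusted p = 0.194). Cbr1, a carbonyl reductase that can convert prostaglandin E2 to prostaglandin F2α, stood at 47.6 ± 10.96 and 51.8 ± 14.9 CPM (adjusted p = 0.887), the prostacyclin receptor Ptgir at 7.14 ± 3.61 and 4.21 ± 1.10 CPM (adjusted p = 0.435) and the leukotriene A4 hydrolase Lta4h at 62.4 ± 7.61 and 66.3 ± 15.1 CPM (adjusted p = 0.919). Against unstimulated EGCs, 1 of 12, 2 of 20 and 3 of 23 of the wider list were called at 6, 12 and 24 h, beside 0.454%, 4.41% and 9.52% of all genes: Slco3a1 higher at each time, Ptgs2os2 higher at 12 h and 24 h, and Ptger3, the EP3 receptor, lower at 24 h (0.604 against 2.69 CPM, adjusted p = 0.0284), with 15 counts in its 4 TME-CM libraries. No TME-CM library of 24 h held more than 6 counts of Ptger3, so it passed the filter through the other groups and its call is a description.

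**Figure D4:**
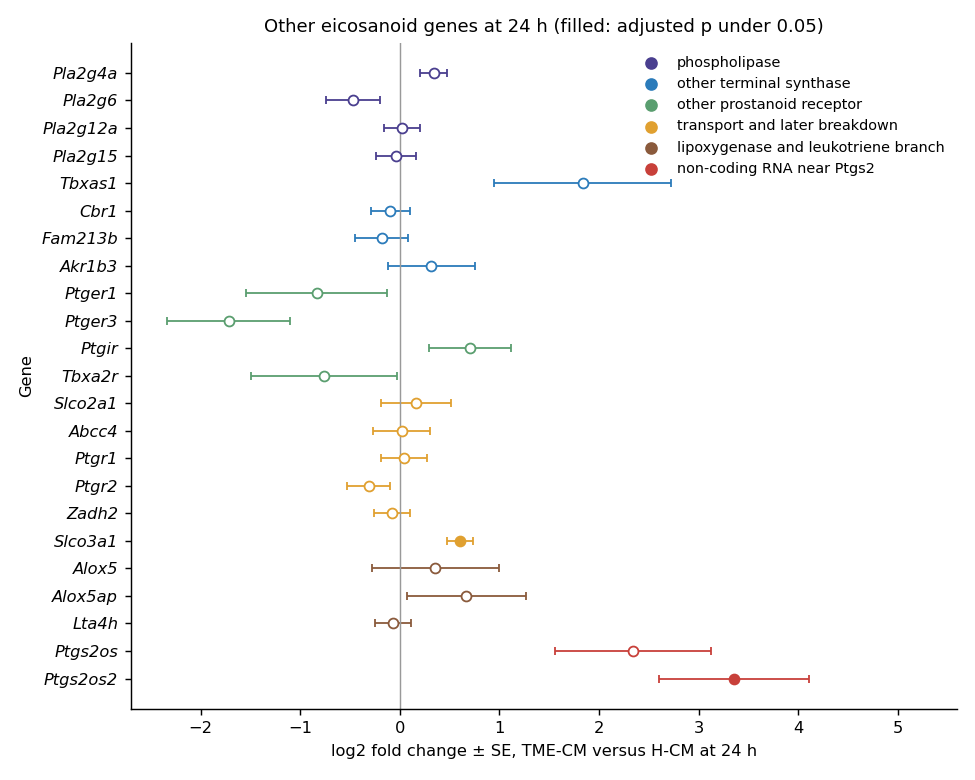
Log2 fold change with its SE in TME-CM versus H-CM EGCs at 24 h for the 23 further eicosanoid genes that passed the filter, colored by role, with filled symbols for an adjusted p under 0.05 in edgeR. The filled genes are Slco3a1 at 0.60 and Ptgs2os2, whose plotted value rests on few counts in H-CM and is not given as a size.

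Over the 24 libraries of 12 h and 24 h and 10192 genes, the genes whose log2 CPM followed Ptgs2 most closely were Ch25h (Pearson's r = 0.925), Rgs16 (0.905), Timp1 (0.889), Rgs4 (0.882) and Nos2 (0.881). Those nearest to Ptges were Mt2 (0.960), Cxcl16 (0.926), Mt1 (0.925), Gch1 (0.920) and Gbp5 (0.918). The lists shared no gene, and Ptgs2 and Ptges correlated with each other at 0.761. These values describe libraries that share groups, time and depth.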

How the data were processed

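RNA of 36 EGC libraries was sequenced from the 3′ end of transcripts (QuantSeq). The authors removed adapters (fastq-mcf), mapped the reads with HISAT2 (mm10), dropped those with more than 1 locus and deposited counts per gene from HT-seq Count without normalization. The submitters' processing notes also name FastQC 0.11.7 and SAMtools 1.5. Annotation, strand setting and molecular identifiers were not given in the sources used here. A 3′ count is not scaled by transcript length. Levels of different genes were compared only to pick 1 gene to name per role and in the sums of markers, which mostly follow the genes of highest count.

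Counts were analysed with edgeR 4.0.16 (limma 3.58.1, R 4.3.3). One quasi-likelihood model with robust dispersions and TMM factors was fitted per time point over 12 libraries, and over 24 libraries for comparisons between times, to genes kept by filterByExpr (minimum count 10), with Benjamini-Hochberg adjustment over all genes tested. Called means an adjusted p under 0.05. CPM use TMM factors over all 36 libraries. DESeq2 1.42.0 served as an alternative, and so did its size factors, no filter, only the groups compared, all libraries in one model, Yam1 left out (an entry that took 11.0% to 48.6% of the counts at 6 h), the replicate number as a block and each library left out in turn. At 6 h the share of Yam1 in replicates 1 to 4 was 12.3%, 37.8%, 11.0% and 14.2% in TME-CM and 48.6%, 43.9%, 47.9% and 20.0% in H-CM. In unstimulated EGCs it was 46.3%, 44.0%, 43.1% and 13.1%, so it was not even over the media. It ran from 12.6% to 39.9% at 12 h and from 12.7% to 35.1% at 24 h. The fits were tested on simulated data. Genes named are the 10 members, wider pathway genes called between TME-CM and H-CM at 12 h or 24 h, the gene with the highest mean CPM of each role, and the 5 genes most correlated with Ptgs2 and with Ptges among those of at least 5 CPM (prior count 2). Ptger3 was named after its values were seen. The members and lists were chosen with earlier results of these data known. Positions are from GENCODE on GRCm38, the assembly also called mm10, and promoter sequences are from RefSeq. A marker that was checked is not reported here.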

Additional observations from a re-analysis of the deposited data

Results flagged for a closer look

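In 81 groups of 4 libraries (a member that passed the filter in 1 medium at 1 time), the highest or lowest library was compared with the rest, and 10 libraries stood apart by a gap of 0.832 to 0.980 of the group's range. Chance gives about 1 in 20 such groups. Hpgd was at 6.90 CPM in TME-CM 24 h replicate 2, and the other 3 libraries reached 0.839 CPM at most. Ptges was highest in replicate 1 of H-CM at 12 h (34.2 CPM, others up to 14.6) and at 24 h (12.97 CPM, others up to 5.68), beside TME-CM libraries of at least 64.5 and 28.8 CPM at these times. Ptges2 was at 41.3 CPM in TME-CM 24 h replicate 4 (others up to 20.8) and at 26.1 CPM in unstimulated 24 h replicate 1 (others up to 14.8). Ptgds was at 18.8 CPM in TME-CM 12 h replicate 2 (others up to 9.60) and at 5.94 CPM in H-CM 24 h replicate 4 (others from 11.8). Ptgis was at 11.1 CPM in unstimulated 24 h replicate 2 (others from 19.3). At 6 h, Ptgis was at 110.5 CPM in H-CM replicate 4, where this is 3 counts, and Ptger4 was at 52.6 CPM in unstimulated replicate 3, where this is 10 counts.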

How the results depend on the processing

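The higher Ptgs2 and Ptges in TME-CM than in H-CM at 12 h and 24 h passed the threshold in all 15 alternatives at each time, with log2 differences of 1.15 to 1.65 and 2.07 to 2.79 and adjusted p of at most 0.0333 and 0.0101. At 6 h the number of members called between TME-CM and H-CM was 0, but 2 with all 36 libraries in one model and 1 without a filter. Against unstimulated EGCs at 6 h it was 1, but 2 with all 36 libraries in one model, 0 with DESeq2 size factors, 0 with only the groups compared and 0 to 1 with a library left out. With all 36 libraries in one model, 899 genes in place of 9 were called between TME-CM and H-CM at 6 h, so that calls of this time depend on that choice. Without a filter, 1 member (Ptges) was called between H-CM and unstimulated EGCs at 12 h and 1 (Ptges) from 12 h to 24 h in H-CM, and DESeq2's Wald test called 1 (Ptgs1) between H-CM and unstimulated EGCs at 24 h, where edgeR called 0 each time. The lower Ptges at 24 h than at 12 h in TME-CM, 1 member called, became 0 with all 36 libraries in one model and 0 to 1 with a library left out. Deviations of libraries with the same replicate number from their group means correlated at -0.16 to 0.23. Every pair was positive for TME-CM and unstimulated EGCs at 12 h (0.02 to 0.20) and for H-CM and unstimulated EGCs at 24 h (0.05 to 0.13). In each other comparison at least 1 pair was negative. These values do not settle whether such libraries share a culture. A replicate block left 0 members called between TME-CM and unstimulated EGCs at 6 h in place of 1 and the same number in every other comparison. Among the members and comparisons called in at least 1 setting, no value reversed its direction. Values that were never called were not checked for a reversal, and the cause of these differences was not tested. Depth limits Hpgd and Ptger2 most, which held at most 38 and 25 counts in a library.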
